A study of Solanum lycopersicum with 9 samples.

Results

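The ABC and MATE transporters of tomato leaf are described here over 3 doses of p-hydroxybenzoic acid (PHBA), a phenolic acid known as an allelochemical. Members are the assembled sequences whose Pfam annotation holds the ABC nucleotide-binding domain (PF00005), the type I ABC membrane domain (PF00664), the ABC-2 type membrane domain (PF01061) or the MATE domain (PF01554), and which reached 0.5 FPKM (fragments per kilobase of sequence, scaled to library size) in 3 or more of the 9 libraries. Of 125 sequences annotated with such a domain, 123 were in the expression table and 111 passed this filter, out of 44203 sequences that passed it in all and 82125 in the table. The 111 fell into 24 type I ABC sequences, 18 ABC-2 type sequences, 33 that held the nucleotide-binding domain alone and 36 MATE sequences. A nucleotide-binding domain stood beside the membrane domain in 18 of the 24 type I and 12 of the 18 ABC-2 type sequences.

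All plants were of the cultivar Diana and were treated about a month after planting for 2 days. The untreated plants (0 mM), the 15 mM PHBA plants and the 30 mM PHBA plants each gave 3 leaf libraries. Per the labels, RNA of the same treatment was mixed in equal parts before sequencing, and nothing in the labels ties the libraries of 1 dose to different plants. The p-values therefore speak to the spread among these 9 libraries alone, and that spread may be technical. The sequences are assembled from the reads and carry no gene names; a sequence may be a fragment of a gene or 1 of several near-identical copies, so how reads were divided between similar members is uncertain.

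ABC transporters use ATP, bound and split at their nucleotide-binding domains, to move compounds across membranes through their membrane domains. In plants, the ABCC (MRP) proteins are known as vacuolar pumps for glutathione conjugates, glucuronides and folates, the ABCB type for auxin and other organic compounds, and the ABCG type, half-size or full-size (PDR), for surface lipids, hormones and defence compounds. MATE proteins are carriers that exchange protons or sodium ions for organic substrates, among them flavonoids, alkaloids, citrate and phenolic compounds. ABCE and ABCF proteins hold nucleotide-binding domains without a membrane domain and act in ribosome recycling and translation rather than in transport.

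Summed FPKM per library lay between 349076 and 383347, and the relative depth read from the steps of low values lay between 0.877 and 1.21 with the first control library set to 1. The 4 most abundant sequences held between 39.4 and 45.0% of the summed FPKM of control, between 26.9 and 44.6% of that at 15 mM, and between 33.5 and 42.4% at 30 mM. Leaf identity was checked on chlorophyll a-b binding proteins and the RuBisCO small subunit: the 25 such sequences summed to 4991 to 7700 FPKM in control, 4238 to 5791 at 15 mM and 1871 to 3001 at 30 mM, and 19 of 25 fell at 30 mM. Sums were also read for protein families with members linked to root endodermis, glandular trichomes, pollen or xylem. These are whole families and not specific markers of a cell type. The 16 CASP-like sequences had 45.6 to 52.3 FPKM in control, 43.6 to 67.8 at 15 mM and 47.1 to 65.9 at 30 mM. In the same order, 9 terpene synthases had 5.38 to 7.17, 4.82 to 6.67 and 5.69 to 8.67 FPKM. The 6 pollen Ole e 1 sequences had 28.4 to 45.2, 30.8 to 43.0 and 25.4 to 38.3 FPKM. The 38 cellulose synthase and laccase sequences had 230 to 287, 201 to 308 and 222 to 348 FPKM. Each of these sums overlapped between doses. At 30 mM, 9 of the 38 (23.7%) and 1 of the 16 were called higher, and 1 of the 6 lower. No sequence that passed the filter carried the seed storage and lipid transfer domain (PF00234) in the annotation used. The part of the mesophyll fall in the transporter results was not tested; in bulk leaf, fewer cells of a type and less RNA per cell cannot be told apart.

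At 30 mM, 31 of the 111 sequences rose against control, 5 fell and 75 did not pass the test (limma on log2(FPKM + 1), Benjamini-Hochberg adjusted p under 0.05 over all 44203 sequences). Of all sequences tested, 11.8% were called, 10.0% higher and 1.75% lower; among the 13634 with an annotation, 21.1% were higher and 2.95% lower. The median log2 fold change of the members was 0.30, against 0.18 over all sequences and 0.30 over annotated ones, the same to 2 decimals as that of annotated sequences. The 30 mM libraries lay wholly above the control libraries for 52 of the 111 members and wholly below for 12. Over all sequences 31.9% showed no overlap, 25.9% above and 6.04% below. Of the 13634 annotated sequences, 6447 lay wholly above and 1080 wholly below, a share above near that of the members. The split between higher and lower depended on the scaling: after quantile normalization, which moved the median of all sequences from 0.18 to -0.01, 23 members were higher and 13 lower, and after median-of-ratios rescaling 24 were higher and 13 lower. Over all sequences, 5.62% were higher and 5.45% lower after quantile normalization (11.6% and 10.6% of annotated ones), and 6.33% and 5.26% after median-of-ratios rescaling. Of the 36 calls, 28 were kept under the first of these and 29 under the second.

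Summed over members, the level was 494 ± 40.7 FPKM (SD, n = 3) in control, 624 ± 124 at 15 mM and 898 ± 111 at 30 mM. The type I sequences went from 74.9 ± 7.31 to 122 ± 35.2 and 262 ± 48.9 FPKM, the MATE sequences from 81.2 ± 5.32 to 100 ± 24.0 and 154 ± 26.9, and the ABC-2 type from 54.5 ± 5.59 to 70.6 ± 10.1 and 100 ± 11.3. The sequences with the nucleotide-binding domain alone went from 283 ± 23.4 to 332 ± 55.5 and 382 ± 31.3 FPKM. Single sequences weighed heavily in these sums. Within the ABC-2 type sum, the mean of TCK_2_TRINITY_DN8645_c0_g1 alone went from 2.62 FPKM in control to 32.3 at 30 mM. That of TCK_1_TRINITY_DN448_c0_g1 (MATE) went from 13.8 to 51.6, and that of TCK_1_TRINITY_DN4880_c0_g1 (type I) from 1.55 to 58.8. At 30 mM, 12 of 18 ABC-2 type, 28 of 36 MATE and 13 of 24 type I sequences did not pass the test. On FPKM as deposited, the 30 mM libraries lay above the control libraries with no overlap for all 4 sums. After division by median-of-ratios size factors, a scaling chosen after seeing the data, this held for 3 of the 4 sums. The nucleotide-binding domain alone was the exception, with 322 to 331 in control libraries, between 302 and 319 for the 15 mM libraries and between 297 and 394 for those of 30 mM. The type I sum on that scale was 86.5 ± 3.46 (SD, n = 3) in control and 229 ± 42.7 at 30 mM.

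**Figure D1:**
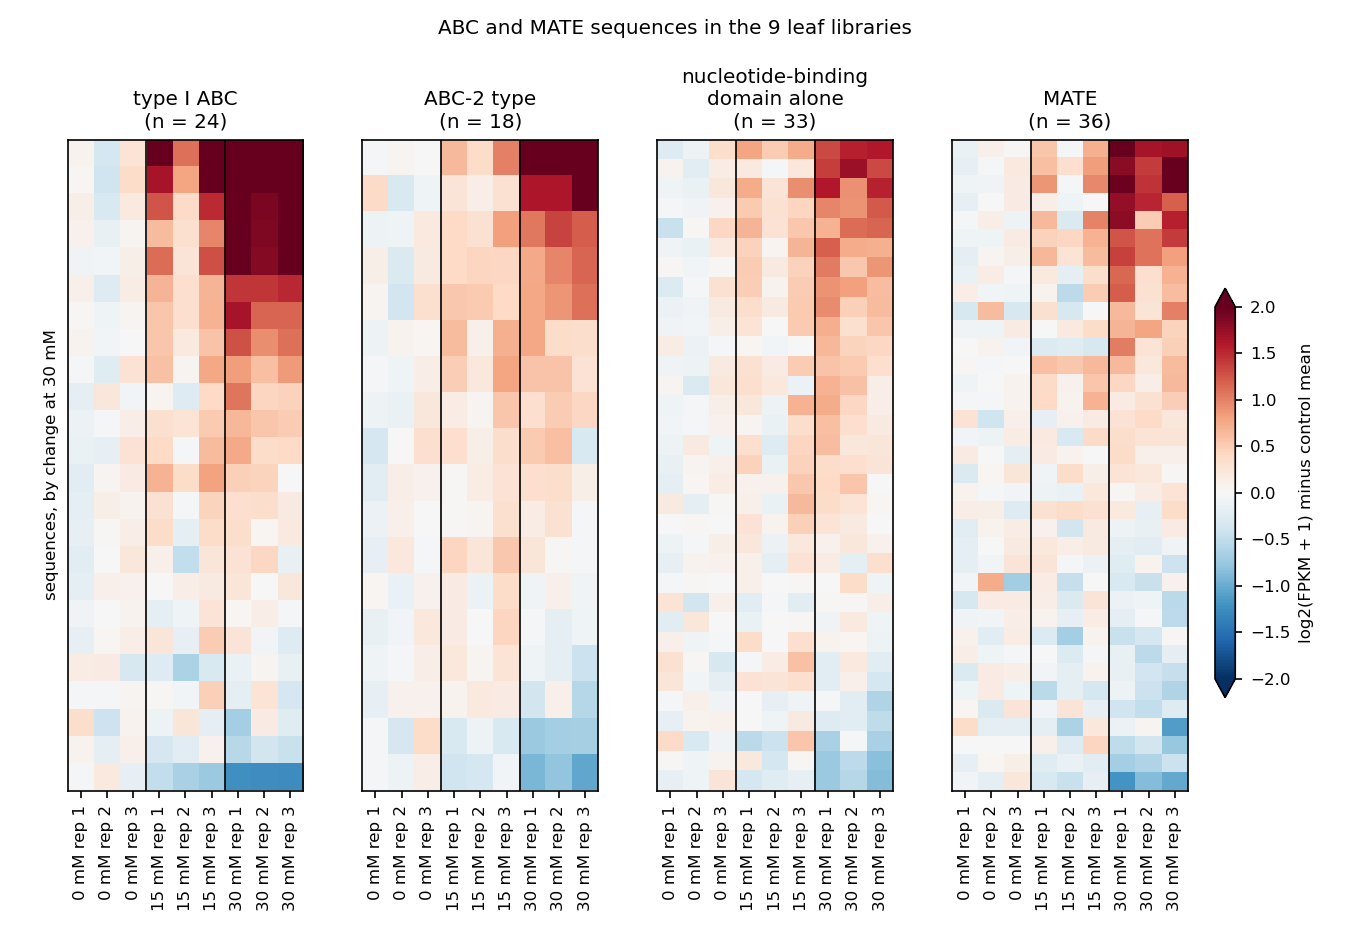
Deviation of log2(FPKM + 1) from the control mean (colour, capped at the ends of the scale) for all 111 members, 1 row per sequence ordered by its change at 30 mM within its subset, and 1 column per library. The reddest rows are at the top of the type I panel, where 10 of 24 sequences rose at 30 mM.

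**Figure D2:**
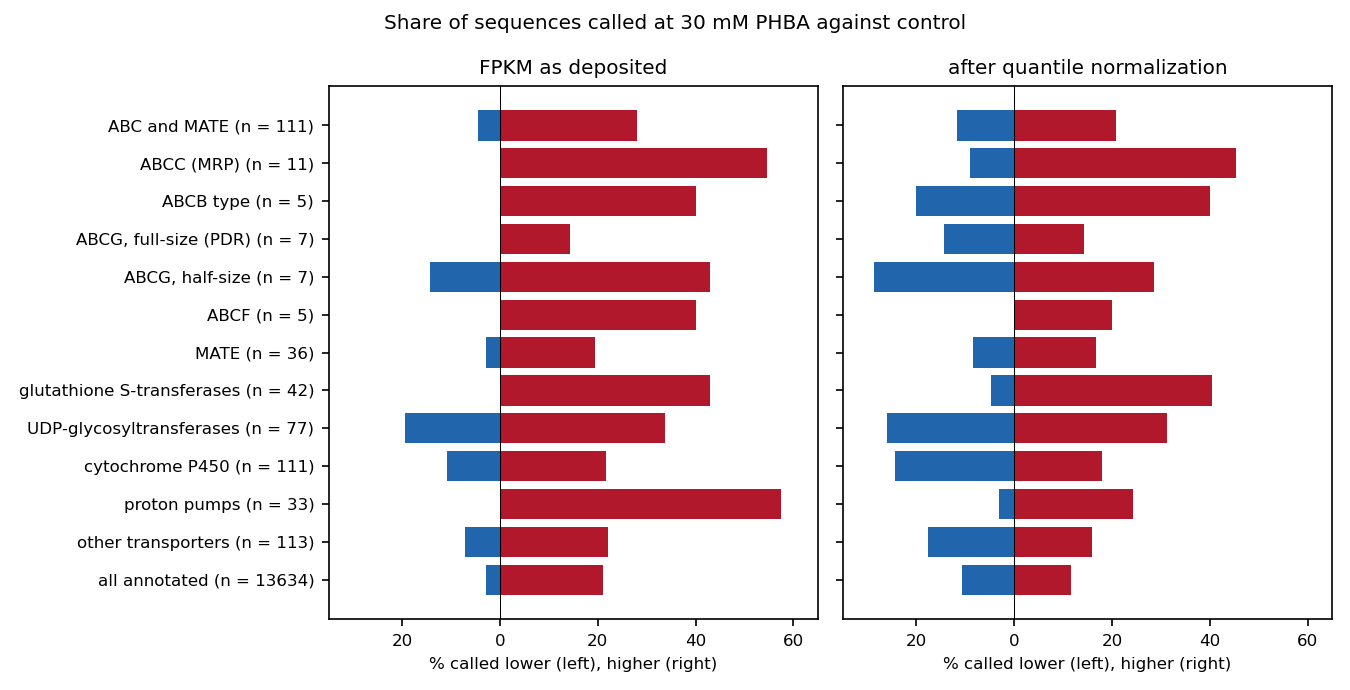
Percent of sequences called higher (right, red) and lower (left, blue) at 30 mM against control for transporter families, related lists and all annotated sequences, on FPKM as deposited and after quantile normalization. No ABCC sequence is called lower on FPKM as deposited, and 1 of 11 is after quantile normalization.

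Among the type I ABC sequences, 10 of 24 (41.7%, beside 21.1% of annotated sequences) rose at 30 mM, 1 fell and 13 did not pass the test, with a median log2 fold change of 0.41. Abundant sequences were called more often. With a mean of at least 5 FPKM, 1572 of 3336 annotated sequences were higher, and 8 of 11 of type I. The median of mean levels was 4.09 FPKM for type I and 2.32 for annotated sequences. The part of abundance in the counts was not tested. After quantile normalization 8 type I sequences were higher and 3 lower, and the median log2 fold change was 0.09. Of the 18 that also held a nucleotide-binding domain, 9 rose and 1 fell, with a median of 0.61, and 7 and 3 after quantile normalization. TCK_1_TRINITY_DN4880_c0_g1, of ABCB type by its conserved-domain match, had 1.64, 0.97 and 2.03 FPKM in the 3 control libraries, 10.16, 4.39 and 12.79 at 15 mM and 71.37, 40.18 and 64.80 at 30 mM. The doses did not overlap, and this was the largest rise among all members, with a log2 fold change of 4.53 ± 0.36 (SE; adjusted p = 0.000245). A second ABCB-type sequence, T30_1_TRINITY_DN34221_c0_g1, stayed low, at 0.15 to 0.25 FPKM in control and 1.28 to 1.88 at 30 mM, and rose by 1.10 (adjusted p = 0.00475). It was below the filter in every control library and passed through the treated ones, so its difference was partly fixed by the filter. Of the 5 ABCB-type sequences, these were the 2 that rose; none fell, but 1 was called lower after quantile normalization.

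The ABCC sequences, the family of vacuolar conjugate pumps, had 6 risers (54.5%, beside 21.1% of annotated sequences) and no faller among 11 members over the type I and nucleotide-binding subsets, with a median log2 fold change of 0.76. After quantile normalization there were 5 risers, 1 faller and a median of 0.33. With a mean of at least 5 FPKM, 6 of 7 ABCC sequences were higher, beside 1572 of 3336 annotated ones. T15_3_TRINITY_DN8672_c0_g1 had 3.56, 2.87 and 3.45 FPKM in control, 5.64, 4.32 and 7.39 at 15 mM and 23.95, 14.65 and 25.17 at 30 mM. TCK_3_TRINITY_DN3408_c0_g1 had 2.81, 1.85 and 3.05 FPKM in control, 7.44, 3.60 and 8.90 at 15 mM and 22.95, 11.97 and 17.51 at 30 mM. Both were above every control library in every 15 mM and 30 mM library, and each rose by 2.34 at 30 mM (adjusted p = 0.000594 and 0.00244). TCK_1_TRINITY_DN4207_c0_g1 had the tightest 30 mM libraries, at 17.15, 17.12 and 18.13 FPKM against 6.19, 4.63 and 6.45 in control, a rise of 1.46 ± 0.15 (SE; adjusted p = 0.000689). TCK_3_TRINITY_DN1279_c0_g1 rose by 1.33 (adjusted p = 0.00158), from 2.23 to 2.57 FPKM in control to 6.69 to 9.71 at 30 mM. The most abundant ABCC sequence that rose, TCK_2_TRINITY_DN2189_c0_g1, holds the nucleotide-binding domain alone and had 22.07, 21.27 and 27.59 FPKM in control, 39.86, 28.22 and 45.80 at 15 mM and 73.33, 45.20 and 69.97 at 30 mM. Its libraries did not overlap between control and either dose, and it rose by 1.35 ± 0.23 at 30 mM (SE; adjusted p = 0.00751). The sixth, T15_2_TRINITY_DN1083_c1_g1, rose by 0.76 (adjusted p = 0.0475), a call lost under 11 of 19 alternative settings, among them leaving out any 1 control or any 1 of the 30 mM libraries.

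TCK_2_TRINITY_DN2304_c0_g1, a type I membrane domain with no nucleotide-binding domain and no family assigned, had 8.52, 6.08 and 10.97 FPKM in control, 28.27, 15.04 and 37.83 at 15 mM and 79.81, 52.19 and 66.77 at 30 mM. It was the most abundant type I sequence by mean level, the doses did not overlap, and it rose by 2.83 ± 0.33 at 30 mM (SE; adjusted p = 0.00118). T15_3_TRINITY_DN511_c0_g1, with both domains and no family, had 1.72, 1.77 and 2.11 FPKM in control, 5.19, 2.43 and 5.96 at 15 mM and 16.04, 9.18 and 10.44 at 30 mM, again with no overlap, and rose by 2.13 (adjusted p = 0.00215). T30_1_TRINITY_DN8212_c0_g1 rose by 0.58 (adjusted p = 0.0244), and lost the call when replicate 1 or 2 of either control or 30 mM was left out. The call was also lost under quantile normalization, median-of-ratios rescaling and a replicate block. The 1 type I sequence that fell, T15_1_TRINITY_DN1222_c0_g2, had 4.30, 5.18 and 3.81 FPKM in control, 2.85, 2.46 and 2.22 at 15 mM and 1.32, 1.29 and 1.25 at 30 mM. Its 3 doses formed a falling order with no overlap, and the change at 30 mM was -1.24 ± 0.14 (SE; adjusted p = 0.00101). The 10 risers made up 43.0% of the type I FPKM in control, 62.1% at 15 mM and 81.5% at 30 mM; they were selected for being higher at 30 mM, so a larger share there is fixed by that selection.

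**Figure D3:**
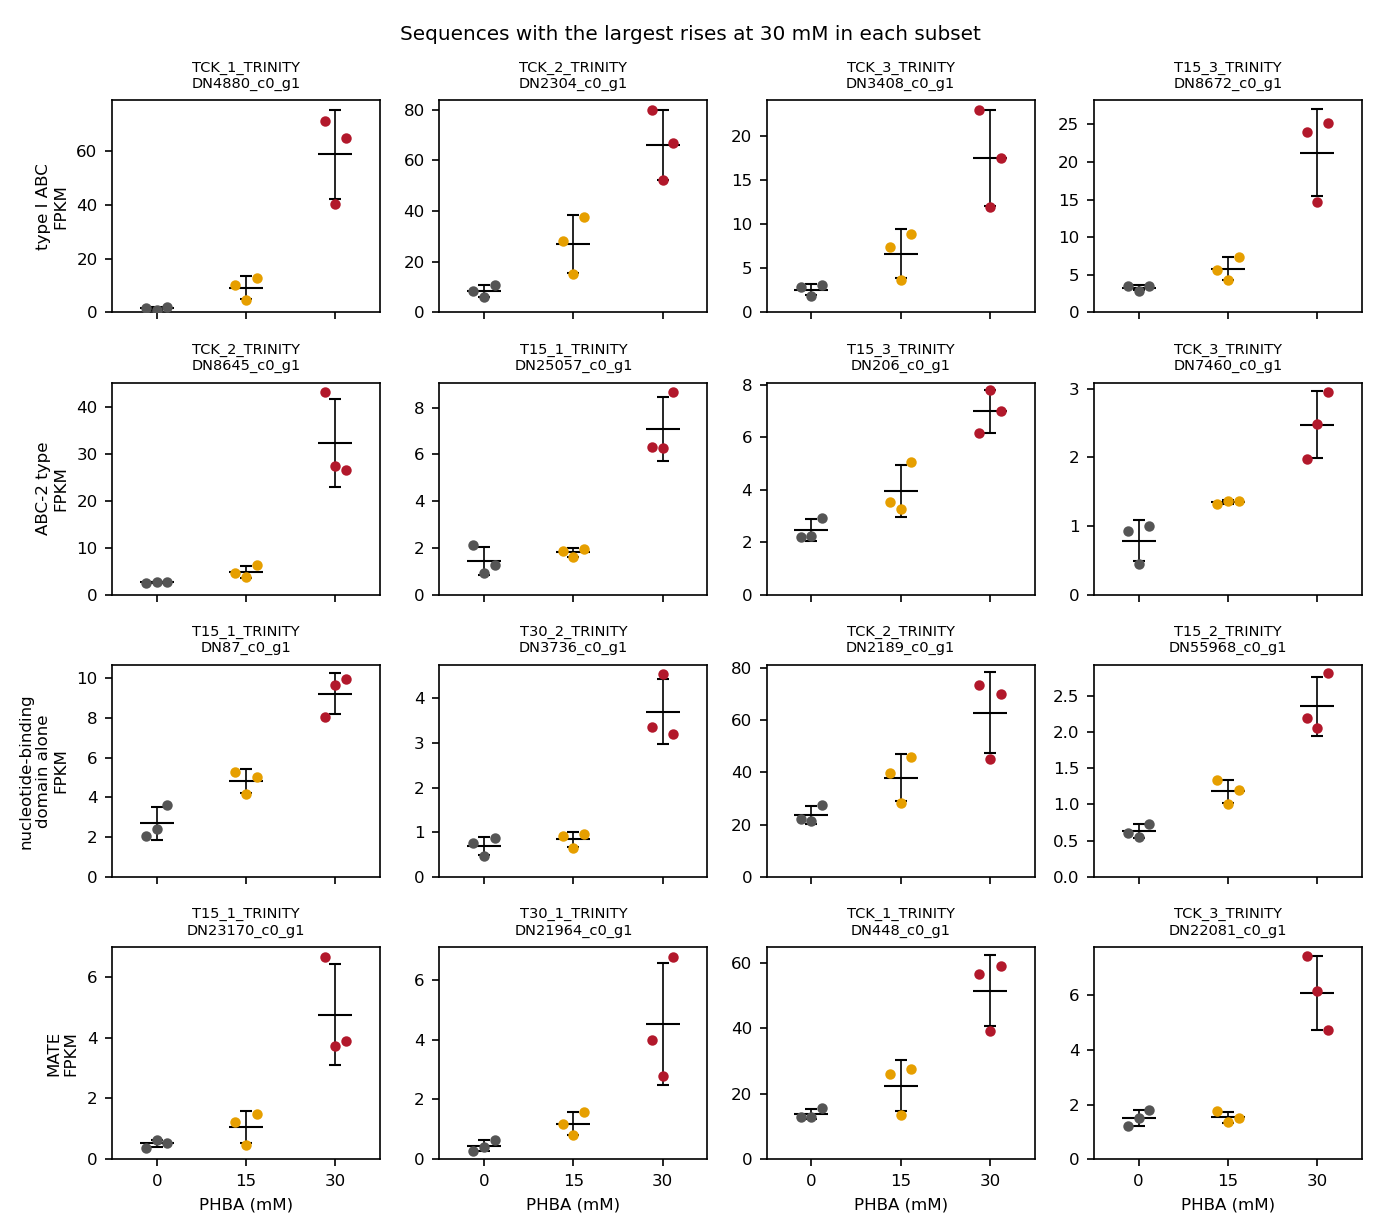
FPKM in each library (points) with the mean and SD (bars, n = 3) at 0, 15 and 30 mM for the 4 largest risers of each subset, each panel on its own linear axis from 0. In all panels the 30 mM points lie above the control points.

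Of the 18 ABC-2 type sequences, the membrane domain of the ABCG proteins, 5 rose, 1 fell and 12 did not pass the test at 30 mM. The median log2 fold change was 0.27, and after quantile normalization 4 were higher and 4 lower, with a median of -0.01. Of the 12 that also held a nucleotide-binding domain, 1 rose (8.33%, beside 21.1% of annotated sequences) and 1 fell, with a median of 0.11. After quantile normalization these counts were 1 and 3. The other risers of this subset held no nucleotide-binding domain. TCK_2_TRINITY_DN8645_c0_g1, a half-size ABCG sequence, had 2.51, 2.75 and 2.59 FPKM in control, 4.68, 3.65 and 6.27 at 15 mM and 43.15, 27.29 and 26.51 at 30 mM. The doses did not overlap, and the change at 30 mM against control was 3.17 ± 0.22 on the log2 scale (SE; adjusted p = 0.000163). T15_1_TRINITY_DN25057_c0_g1 had 2.11, 0.93 and 1.25 FPKM in control, 1.85, 1.6 and 1.95 at 15 mM and 6.31, 6.27 and 8.68 at 30 mM; control and 15 mM overlapped, 30 mM stood above both, and it rose by 1.75 (adjusted p = 0.00109). T15_3_TRINITY_DN206_c0_g1 rose by 1.21 (adjusted p = 0.00287), from 2.21 to 2.94 FPKM in control to 6.18 to 7.80 at 30 mM, and TCK_3_TRINITY_DN7460_c0_g1, which also holds the PDR-associated domain, rose by 0.97 (adjusted p = 0.00913). T15_1_TRINITY_DN10074_c0_g1 rose by 0.92 (adjusted p = 0.0184), and lost the call when control replicate 1, control replicate 2 or 30 mM replicate 3 was left out, and under either rescaling.

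The ABC-2 type sequence that fell, T15_3_TRINITY_DN18969_c0_g2, is half-size and had 1.90, 1.78 and 2.25 FPKM in control, 1.25, 1.33 and 1.86 at 15 mM and 0.58, 0.72 and 0.44 at 30 mM. All 30 mM libraries lay below all others, for a change of -0.91 ± 0.16 (SE; adjusted p = 0.00701). The second most abundant ABC-2 type sequence by mean level, TCK_1_TRINITY_DN2368_c0_g1, also half-size, had 12.18, 12.66 and 14.31 FPKM in control, 15.26, 13.64 and 15.97 at 15 mM and 12.27, 11.40 and 9.46 at 30 mM. It did not pass the test at 30 mM, with a log2 fold change of -0.23 (adjusted p = 0.318), but was called lower after quantile normalization. The 7 half-size ABCG sequences, over subsets, had 3 risers and 1 faller, and 2 of each after quantile normalization. The 7 full-size PDR sequences had 1 riser and no faller, and 1 of each after quantile normalization.

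Of the 33 sequences with the nucleotide-binding domain alone, 9 rose, 2 fell and 22 did not pass the test at 30 mM, with a median log2 fold change of 0.32, and 5 were higher and 3 lower after quantile normalization. This count was the least stable: it was 4 without control replicate 1 and 4 without control replicate 2, 5 without 30 mM replicate 1 and 6 without 30 mM replicate 3. T15_1_TRINITY_DN87_c0_g1, from a full-size PDR protein of the ABCG family, had 2.03, 2.39 and 3.63 FPKM in control, 5.25, 4.15 and 5.04 at 15 mM and 8.03, 9.65 and 9.95 at 30 mM. Its doses did not overlap, and it rose by 1.49 ± 0.18 (SE; adjusted p = 0.00135). T30_2_TRINITY_DN3736_c0_g1, of half-size ABCG type, had 0.76, 0.46 and 0.86 FPKM in control, 0.92, 0.65 and 0.96 at 15 mM and 3.37, 4.55 and 3.20 at 30 mM; control and 15 mM overlapped, and it rose by 1.47 (adjusted p = 0.00115). T15_2_TRINITY_DN55968_c0_g1, of ABCA type, rose by 1.03 (adjusted p = 0.00293), from 0.55 to 0.73 FPKM in control to 2.05 to 2.81 at 30 mM.

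TCK_2_TRINITY_DN990_c0_g1, the ABCE sequence, had 5.86, 5.60 and 7.28 FPKM in control, 8.90, 6.49 and 10.57 at 15 mM and 15.50, 11.05 and 10.75 at 30 mM. Every 30 mM library was above every control library, and it rose by 0.88 ± 0.20 (SE; adjusted p = 0.0235). That call did not survive leaving out control replicate 1, control replicate 2 or 30 mM replicate 1, nor quantile normalization. T30_3_TRINITY_DN52659_c0_g1, with no family, rose by 0.99 (adjusted p = 0.0281), a call lost in 8 of the 19 alternative settings. The 2 that fell, TCK_1_TRINITY_DN12640_c0_g1 (-0.73, adjusted p = 0.0262) and T15_3_TRINITY_DN30811_c0_g1 (-0.70, adjusted p = 0.0454), both lay under 2 FPKM and lost the call without any 1 control library, among other settings. The latter was below the filter in every 30 mM library and passed through the other doses, so its difference was partly fixed by the filter. The most abundant sequences of the whole set were of ABCF type, soluble factors of translation: T15_3_TRINITY_DN4278_c0_g1 had 105 ± 10.3 FPKM in control, 110 ± 18.3 at 15 mM and 114 ± 20 at 30 mM (SD, n = 3; adjusted p = 0.776). T30_2_TRINITY_DN483_c0_g1 had 68.6 ± 5.47, 74.4 ± 9.55 and 75.2 ± 4.34 FPKM (adjusted p = 0.6). Their libraries overlapped between doses. The 5 ABCF sequences had 2 risers, 1 after quantile normalization or without 30 mM replicate 3, and 0 without control replicate 1, control replicate 2 or 30 mM replicate 1. Together with ABCE they are not membrane transporters.

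Of the 36 MATE sequences, 7 rose, 1 fell and 28 did not pass the test at 30 mM, with a median log2 fold change of 0.18. The share that rose, 19.4%, was near the 21.1% of annotated sequences, whose median was 0.30. The median of mean levels was 1.30 FPKM for MATE and 2.32 for annotated sequences. After quantile normalization 6 MATE sequences were higher, 3 lower and the median was -0.02. TCK_1_TRINITY_DN448_c0_g1, the most abundant MATE sequence, had 12.80, 12.94 and 15.54 FPKM in control, 26.18, 13.54 and 27.65 at 15 mM and 56.56, 39.21 and 59.00 at 30 mM. Replicate 2 of 15 mM lay within the control range, every 30 mM library lay above all others, and it rose by 1.82 ± 0.27 (SE; adjusted p = 0.00352). T15_1_TRINITY_DN23170_c0_g1 had 0.38, 0.63 and 0.54 FPKM in control, 1.22, 0.47 and 1.49 at 15 mM and 6.68, 3.72 and 3.90 at 30 mM, a rise of 1.89 (adjusted p = 0.00218). T30_1_TRINITY_DN21964_c0_g1 had 0.28, 0.41 and 0.65 FPKM in control, 1.18, 0.81 and 1.57 at 15 mM and 4, 2.78 and 6.77 at 30 mM, a rise of 1.87 (adjusted p = 0.00287). In both, the 30 mM libraries stood above all others, while control and 15 mM overlapped in the first alone.

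TCK_3_TRINITY_DN22081_c0_g1, of the eukaryotic MATE model like most risers, had 1.23, 1.49 and 1.80 FPKM in control, 1.75, 1.35 and 1.51 at 15 mM and 7.44, 6.15 and 4.73 at 30 mM. Its 15 mM libraries lay within the control range, and it rose by 1.49 ± 0.17 at 30 mM (SE; adjusted p = 0.00114). T15_1_TRINITY_DN4636_c0_g1 rose by 1.25 (adjusted p = 0.00147) and TCK_1_TRINITY_DN1971_c0_g1 by 1.09 (adjusted p = 0.00542); T15_3_TRINITY_DN1925_c1_g1 was called at 0.63 (adjusted p = 0.0394) but lost the call in 11 alternative settings. T30_3_TRINITY_DN28608_c0_g1 fell: it had 9.36, 8.56 and 11.66 FPKM in control, 7.70, 6.88 and 8.64 at 15 mM and 3.72, 4.91 and 4.32 at 30 mM, with a change of -1.03 ± 0.15 (SE; adjusted p = 0.00351). Control and 15 mM overlapped, and 30 mM lay below both. T15_1_TRINITY_DN1832_c0_g1, of DinF-like type, had 6.75, 7.55 and 6.27 FPKM in control, 11.31, 5.39 and 14.57 at 15 mM and 26.07, 10.11 and 22.08 at 30 mM. Its 30 mM libraries lay above all control libraries, but it did not pass the test (1.28 ± 0.38 SE; adjusted p = 0.0646).

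At 15 mM against control, no member passed the test (limma), where 0.0995% of all sequences did, 0.0837% higher and 0.0158% lower. At an unadjusted p under 0.05 there were 25 higher and 1 lower, where 10.4% of all sequences had such a p in either direction. The 15 mM libraries lay wholly above control for 29 members and wholly below for 4. Over all sequences 17.1% showed no overlap, 14.7% above and 2.37% below. Of the 13634 annotated sequences, 1937 were higher and 127 lower at that p, and 3240 lay wholly above and 276 wholly below. The median log2 fold change of the members was 0.18, against 0.15 over all sequences and 0.19 over annotated ones. By subset it was 0.28 for type I, 0.24 for ABC-2 type, 0.24 for the nucleotide-binding domain alone and 0.03 for MATE; after quantile normalization it was 0.01 for all members and -0.11 for MATE. The smallest unadjusted p belonged to the ABCB-type sequence TCK_1_TRINITY_DN4880_c0_g1, at 1.91 ± 0.36 (SE; adjusted p = 0.113). TCK_2_TRINITY_DN2304_c0_g1 followed at 1.5 (adjusted p = 0.162) and the falling T15_1_TRINITY_DN1222_c0_g2 at -0.63 (adjusted p = 0.170). TCK_1_TRINITY_DN4207_c0_g1 stood at 0.57 (adjusted p = 0.233) and T15_1_TRINITY_DN87_c0_g1 at 0.68 (adjusted p = 0.234). Without 15 mM replicate 2, 2 members passed the test, TCK_1_TRINITY_DN4880_c0_g1 at 2.31 (adjusted p = 0.0302) and TCK_2_TRINITY_DN2304_c0_g1 at 1.86 (adjusted p = 0.0424), array weights gave 5, and a filter at a mean of 5 FPKM gave 2. More sequences of the whole table were called in these settings too. Without 15 mM replicate 2, 127 were higher and 8 lower, and with array weights 714 and 79. The filter at 5 FPKM called 213 higher and 5 lower of 4520 sequences.

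Replicate 2 of 15 mM was the lowest library of its dose in 28 of the 31 sequences that rose at 30 mM, and in 70.9% of the 4425 such sequences over the whole table. It was also the 15 mM library whose 4 most abundant sequences took the highest share of FPKM, 44.6%; the part of this share in the result was not tested.

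In all 31 risers and all 5 fallers the mean at 15 mM lay between control and 30 mM on the log2 scale, and over the whole table this held for 96.1% of sequences called higher and 85.9% of those called lower. The position was nearer control for 25 of the 31 and nearer 30 mM for 6, with a median of 42.0% of the way, against 38.1% over all sequences called higher. For the MATE risers it was 31.4% of the way, and all 7 were nearer control. Of the 4425 sequences called higher in the whole table, 3094 were nearer control, 1159 nearer 30 mM, 132 beyond control and 40 beyond 30 mM.

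Against 15 mM, 13 members were higher at 30 mM (11.7%) and 1 was lower (0.90%). Of all sequences 3.1% were called, 2.41% higher and 0.69% lower, and of annotated ones 4.81% were higher and 1.15% lower. The comparisons share their libraries, and all 14 were also called at 30 mM against control. The 30 mM libraries lay wholly above the 15 mM libraries for 33 members and wholly below for 16. Over all sequences 19.5% showed no overlap, 12.6% above and 6.9% below. Of the 13634 annotated sequences, 2905 lay wholly above and 1070 wholly below. By subset 4 type I, 2 ABC-2 type, 2 nucleotide-binding and 5 MATE sequences were higher. The largest steps were 2.63 in TCK_1_TRINITY_DN4880_c0_g1 (adjusted p = 0.00785), 2.49 in TCK_2_TRINITY_DN8645_c0_g1 (adjusted p = 0.00184), 1.70 in T15_3_TRINITY_DN8672_c0_g1 (adjusted p = 0.00755), 1.52 in T15_1_TRINITY_DN25057_c0_g1 (adjusted p = 0.00686) and 1.48 in T15_1_TRINITY_DN23170_c0_g1 (adjusted p = 0.0181). The first 4 of these, with TCK_3_TRINITY_DN22081_c0_g1 and T30_2_TRINITY_DN3736_c0_g1, were the 6 calls kept under every alternative setting in which they were tested; the filter at a mean of 5 FPKM tested 3 of these 6, and the other 3 lay below it. Against 14 calls with all libraries, there were 6 without 15 mM replicate 1 or without 30 mM replicate 1, 7 without 30 mM replicate 3, 8 when either of the first and second control libraries was left out, and 9 without 15 mM replicate 2 or 3.

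**Figure D4:**
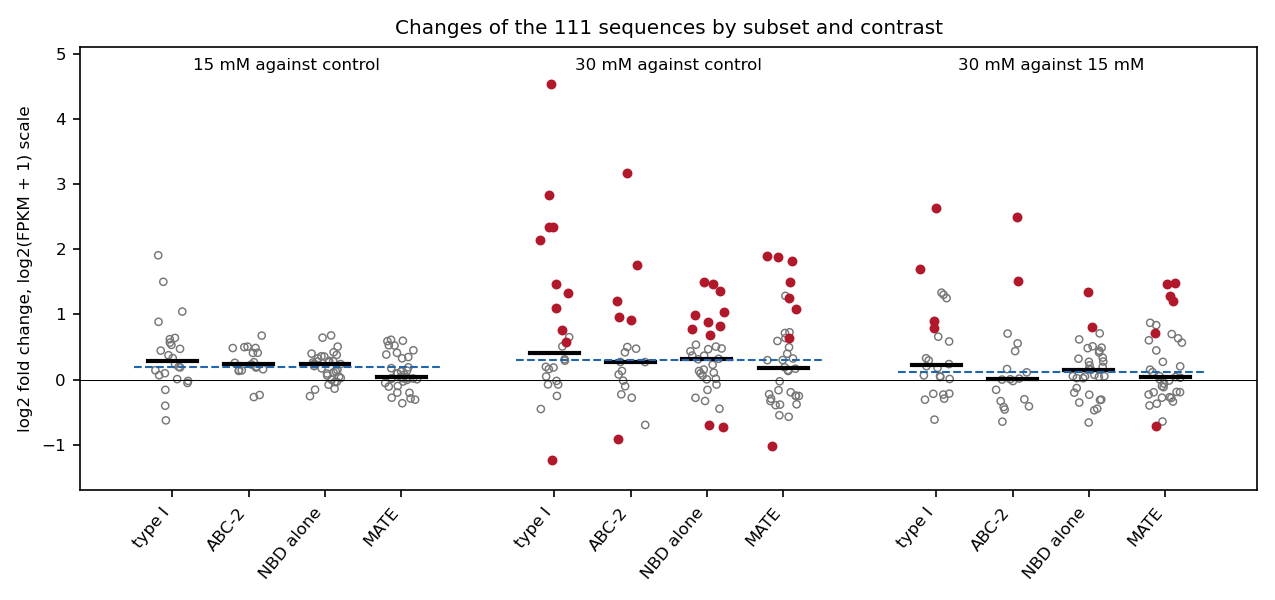
Log2 fold change of each member on log2(FPKM + 1), by subset, in the 3 comparisons, which share libraries; filled red points passed the test, black bars are subset medians and the dashed line is the median of annotated sequences. No point is filled at 15 mM against control, and the highest at 30 mM stands at 4.53.

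Other lists of the detoxification route were read from the same fit, to be set beside the 21.1% of annotated sequences called higher and 2.95% called lower at 30 mM, or 11.6% and 10.6% after quantile normalization. Glutathione S-transferases, which make the conjugates that ABCC pumps carry, had 18 risers (42.9%) and no faller of 42, with a median log2 fold change of 0.73, and 17 higher and 2 lower after quantile normalization. Sequences with domains of proton pumps had 19 risers (57.6%) and no faller of 33, with a median of 0.72, and 8 and 1 after quantile normalization. Some of these domains also occur in calcium pumps and ATP synthases, so the list is not restricted to pumps of the plasma membrane and vacuole. Their summed FPKM overlapped between doses, at 902 to 1113 in control, 906 to 1254 at 15 mM and 1004 to 1206 at 30 mM. Risers of this list numbered 7 without control replicate 1, 7 without control replicate 2, 11 without control replicate 3 and 10 without 30 mM replicate 1. UDP-glycosyltransferases, which add sugars to phenolics, had 26 risers (33.8%) and 15 fallers of 77, and 24 and 20 after quantile normalization. Cytochrome P450 enzymes had 24 risers (21.6%) and 12 fallers of 111, a share of risers near that of annotated sequences, and 20 and 27 after quantile normalization. Transporters of other families had 25 risers (22.1%) and 8 fallers of 113, also near that share, and 18 and 20 after quantile normalization. Leaving out 1 library gave 5 to 15 fallers among the UDP-glycosyltransferases and 6 to 12 among the P450 enzymes, and 14 to 26 risers and 3 to 9 fallers among the other transporters.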

How the data were processed

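Total RNA of leaf was sequenced, and the authors deposited FPKM per assembled sequence and an annotation with Pfam and conserved-domain (CDD) matches; per the submitters' processing notes, FastQC 0.11.5, Trimmomatic 0.36, RSEM and DESeq were used, and read counts were not used here. FPKM were tested as log2(FPKM + 1) with limma 3.58.1 in R 4.3.3, with the 3 doses in 1 model over 9 libraries (6 residual degrees of freedom), a mean trend and Benjamini-Hochberg adjustment, after a filter of 0.5 FPKM in 3 libraries; fold changes on this scale understate those of low sequences. The fit was tested on simulated data. Exact depth is unknown, so no counting interval is given. Families were read from the CDD matches of 69 members. Named sequences were, per subset, the 6 largest risers, 3 largest fallers, 2 most abundant members and 2 largest steps from 15 to 30 mM. The 5 with the smallest p at 15 mM were taken over all members. Other sequences named were chosen after their values were seen. Members, lists and tests were chosen with earlier results of these data known. Alternatives were other pseudocounts (0.1 and 5), filters, scalings, array weights, a replicate block, a fit of 6 libraries and leaving out each library.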

Additional observations from a re-analysis of the deposited data

How the results depend on the processing

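No called sequence changed direction in any of the 19 alternative settings in which it was tested. Of the 36 calls at 30 mM against control, 25 were kept wherever they were tested; 15 were tested in all 19 settings, and 12 of these were kept in all. When 1 library was left out, the total ran from 25 to 40. With a mean of at least 5 FPKM, which leaves 32 members, calls at 30 mM were 21 in all, 2 of ABC-2 type, 6 with the nucleotide-binding domain alone and 5 MATE, and 2 were called at 15 mM, where array weights gave 5 and leaving out 1 library 0 to 2. Of all 4520 sequences left by that filter, 2015 were higher and 357 lower at 30 mM, and 213 and 5 at 15 mM. Array weights called 714 higher and 79 lower at 15 mM over all 44203 sequences. Sequences with the nucleotide-binding domain alone had 5 calls with no filter, 7 in the fit of the 6 libraries alone and 4 to 13 when 1 library was left out. At 30 against 15 mM, calls were 7 with no filter, 22 after median-of-ratios rescaling, 25 without the 4 most abundant sequences, 6 in the fit of the 6 libraries and 6 to 15 when 1 library was left out; the cause was not tested. With 1 library left out, the other doses share the spread. With the replicate number as a block, calls were 31 at 30 mM against control, 12 at 30 against 15 mM and 0 at 15 mM; same-numbered libraries share only a number, their deviations correlating at -0.0128 to 0.0269, and 4 of 9 libraries correlated best with their own number. For single named sequences, 1622 values kept their side of the threshold, 106 lost it and 51 gained it.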

Other observations

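Across the 9 libraries, which share their doses and depth, the members most like the largest riser of each subset often came from another subset. TCK_2_TRINITY_DN8645_c0_g1, the half-size ABCG sequence, was most like the MATE sequence T15_1_TRINITY_DN23170_c0_g1 (Pearson's r = 0.987 on log2(FPKM + 1)), and T15_1_TRINITY_DN87_c0_g1, of PDR type, was most like the MATE sequence T15_1_TRINITY_DN4636_c0_g1 (r = 0.970). The ABCB-type TCK_1_TRINITY_DN4880_c0_g1 was most like the other ABCB-type riser, T30_1_TRINITY_DN34221_c0_g1 (r = 0.993). These values are descriptions. At the edge of the filter, 2 members reached 0.5 FPKM in exactly 3 libraries, with highest values of 0.79 and 0.87 FPKM, and 3 sequences left out reached it in 2 libraries, with highest values of 0.84, 0.98 and 1.24 FPKM. Of the kept members, 3 reached the minimum in no control library and 3 in no 30 mM library.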
